A study of Mus musculus with 2 samples.

Results

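The 43 genes described here encode proteins of regulated secretion and of the membrane recovery that follows it. They cover SNARE proteins, synaptotagmins, clamps and priming factors, the SNARE disassembly machinery, vesicle membrane proteins, Rab proteins and the clathrin coat. They were taken by gene name from a list chosen with earlier results of these data known. Of the 43, 40 had at least 1 read, among 15683 annotated genes with a read, a count that the choice of the list may have shaped. Rab27b, Sv2b and Sv2c had none. The reads came from adrenal glands of B6CASTF1/J males at 36 days of age; the strain is the F1 hybrid of C57BL/6J and CAST/EiJ. There was 1 group with 2 libraries, replicate 1 and replicate 2, and no treatment or genotype was compared. The labels contradict each other on whether the libraries came from 1 animal or from 2, so the spread between them may be technical in part.

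In neurons and in the chromaffin cells of the adrenal medulla, a vesicle is held at the plasma membrane by SNARE proteins, and calcium that enters the cell and binds a synaptotagmin triggers fusion. NSF and its SNAP adaptors then pull the SNARE complex apart, and clathrin with its AP2 adaptor retrieves the membrane. Several of these genes make a neural form and a widely expressed form by alternative splicing. The same machinery in other SNARE combinations serves secretion and membrane traffic in every cell, so in whole gland the reads of most of these genes cannot be given to one cell type, and fewer cells of a type and less RNA per cell cannot be told apart.

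The exclusive exons of Snap25 and the neural exons of Clta and Cltb are shown first, because the long reads resolved them. They were read from GENCODE M21 transcripts on mm10, 5′ to 3′ along the gene. The alternative exons 5a (chr2:136769743-136769860, plus strand) and 5b (chr2:136770057-136770174, plus strand) of Snap25 are each 118 bases long and coding. Capitals mark the 31 bases at which they differ.

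Snap25 exon 5a: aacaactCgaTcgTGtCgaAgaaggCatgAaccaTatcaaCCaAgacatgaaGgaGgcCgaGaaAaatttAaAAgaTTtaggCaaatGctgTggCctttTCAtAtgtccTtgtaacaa

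Snap25 exon 5b: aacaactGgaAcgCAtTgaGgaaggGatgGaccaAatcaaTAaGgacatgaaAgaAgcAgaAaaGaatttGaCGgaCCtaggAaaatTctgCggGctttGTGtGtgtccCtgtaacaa

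Clta and Cltb, the light chains of clathrin, each carry a neural cassette exon of 54 bases, at chr4:44030215-44030268 (plus strand) and chr13:54597026-54597079 (minus strand). Capitals mark the 17 of 54 bases at which these differ. Clta has a second neural exon of 36 bases, at chr4:44031400-44031435 (plus strand), printed without capitals. All are coding and a multiple of 3 bases long, so that including them keeps the reading frame.

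Clta first neural exon: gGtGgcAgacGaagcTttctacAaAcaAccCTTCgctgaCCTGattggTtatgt

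Cltb neural exon: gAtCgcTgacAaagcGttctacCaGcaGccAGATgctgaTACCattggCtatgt

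Clta second neural exon: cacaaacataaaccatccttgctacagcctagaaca

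The junctions that most adrenal reads held in place of these exons are given with 20 bases on each side, the last exon in capitals.

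Clta junction without neural exons: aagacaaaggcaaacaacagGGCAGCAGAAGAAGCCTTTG

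Cltb junction without neural exon: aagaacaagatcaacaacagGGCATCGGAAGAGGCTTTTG

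The adrenal reads held the non-neural forms of both clathrin light chains nearly throughout, and the 5a form of Snap25, which chromaffin cells are known for. Forms were counted in full-length reads, those that follow an annotated transcript (Known) or a complete unannotated one (NIC, which recombines annotated splice sites, and NNC, which has at least 1 new site). Of the Clta reads, 2 of 64 in replicate 1 (3.13%, Wilson 95% interval 0.861 to 10.7%) and 5 of 77 in replicate 2 (6.49%, 2.81 to 14.3%) held a neural exon. These 7 reads were 4.96% of 141. In 6 of them it was the 36-base exon and in 1 the 54-base exon, and no read of 141 held both, which allows a share of up to 2.13% (3 counts).

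The neural exon of Cltb was in 0 of 79 reads of replicate 1, which allows a share of up to 3.80%, and in 2 of 93 of replicate 2 (2.15%, 0.592 to 7.51%). Both light chains were thus read almost only without their neural exons, in both libraries.

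Snap25, the plasma membrane SNARE of neurons and endocrine cells, was read almost always with the same exclusive exon: exon 5a was in 12 of 13 deciding reads of replicate 1 and in 14 of 14 of replicate 2. Exon 5b was in the remaining 1 of 27 reads. The share of exon 5a over both libraries was 96.3% (81.7 to 99.3%).

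Ap2m1, which encodes the mu subunit of the AP2 adaptor, has an annotated coding micro-exon of 6 bases, shown here in capitals with 20 bases of its neighbours (chr16:20540808-20540813, plus strand).

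Ap2m1 micro-exon in place: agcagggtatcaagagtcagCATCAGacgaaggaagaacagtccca

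Among full-length Ap2m1 reads that spliced out both flanking introns or jumped the micro-exon, 0 of 63 in replicate 1 and 0 of 49 in replicate 2 held it, and 0 of 112 reads allows a share of up to 2.68%. In each library 1 other read kept the intron before the micro-exon and used the intron that starts right after it (chr16:20540814-20540974). Stx3, a plasma membrane syntaxin, held an internal exon of its leading annotated form that another annotated form lacks, in 6 of 6 and 10 of 10 deciding reads. Its last exon was not counted. Vamp4, a SNARE of the trans-Golgi network, ended in the last exon of its leading form in 15 of 16 and 13 of 16 reads. Syn2, a synapsin that tethers vesicles, was the most divided of the 3: the last exon of its leading form was in 10 of 13 reads of replicate 1 and 6 of 8 of replicate 2, and the remaining 5 of 21 had that of the shorter annotated forms.

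Unannotated structures recurred in Rab3a and Syt5. Rab3a, the Rab protein of synaptic and chromaffin vesicles, used mainly 2 starts of its first intron. The bases around them (chr8:70754854-70754883, plus strand, RefSeq, GRCm38.p6, the assembly of mm10) are given with the first bases of both introns in capitals.

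Rab3a first intron: cttagagaggGTaaggGTgagcgcaaccca

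Reads were counted by the start of the intron, whichever exon it led to, and only at the 3 positions named here. All 44 full-length reads of replicate 1 and 43 of 47 of replicate 2 were counted. The others of replicate 2 started their first intron elsewhere. The start of Rab3a-201, at 70754864, was in 29 of 44 reads of replicate 1 and 29 of 43 of replicate 2. The start 6 bases further on, at 70754870, was in 15 of 44 reads (34.1%, 21.9 to 48.9%) and 14 of 43 (32.6%, 20.5 to 47.5%). Both begin with GT. The annotation has a start 1 base before the latter, at 70754869, for Rab3a-204, where the reference bases are GG, and no read of 87 used it, which allows a share of up to 3.45%. The coding part of these transcripts begins in exon 2, so that this choice lies in the 5′ untranslated region.

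Syt5, a synaptotagmin of dense-core vesicles, joined the upstream one of its annotated first exons (chr7:4547313-4547541, minus strand) to the exons of the transcript that starts at the downstream one, in 7 of 8 full-length reads of replicate 1 and 5 of 5 of replicate 2. Every splice site of that form is annotated, but not their combination (NIC), and it outnumbered the annotated forms in both libraries. In the annotated transcript that has the upstream exon, the coding part starts in exon 2.

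The level of the whole list was nearly equal in the libraries. The 43 genes took 813 reads in replicate 1 and 828 in replicate 2, or 1797 and 1788 CPM (reads scaled by the total of endogenous reads), which is 0.180% and 0.179% of all. A long read comes from a single transcript, so CPM was not divided by length; whether long transcripts were read as often as short ones was not tested, which limits comparisons of level between genes. Napa, Cltb, Clta, Ap2m1, Rab3a and Vamp8 made up 59.2% and 61.6% of the reads of the list. At the other end, 17 genes had 1 to 9 reads over both libraries, where a single read equals 2.21 CPM (replicate 1) or 2.16 CPM (replicate 2).

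**Figure D1:**
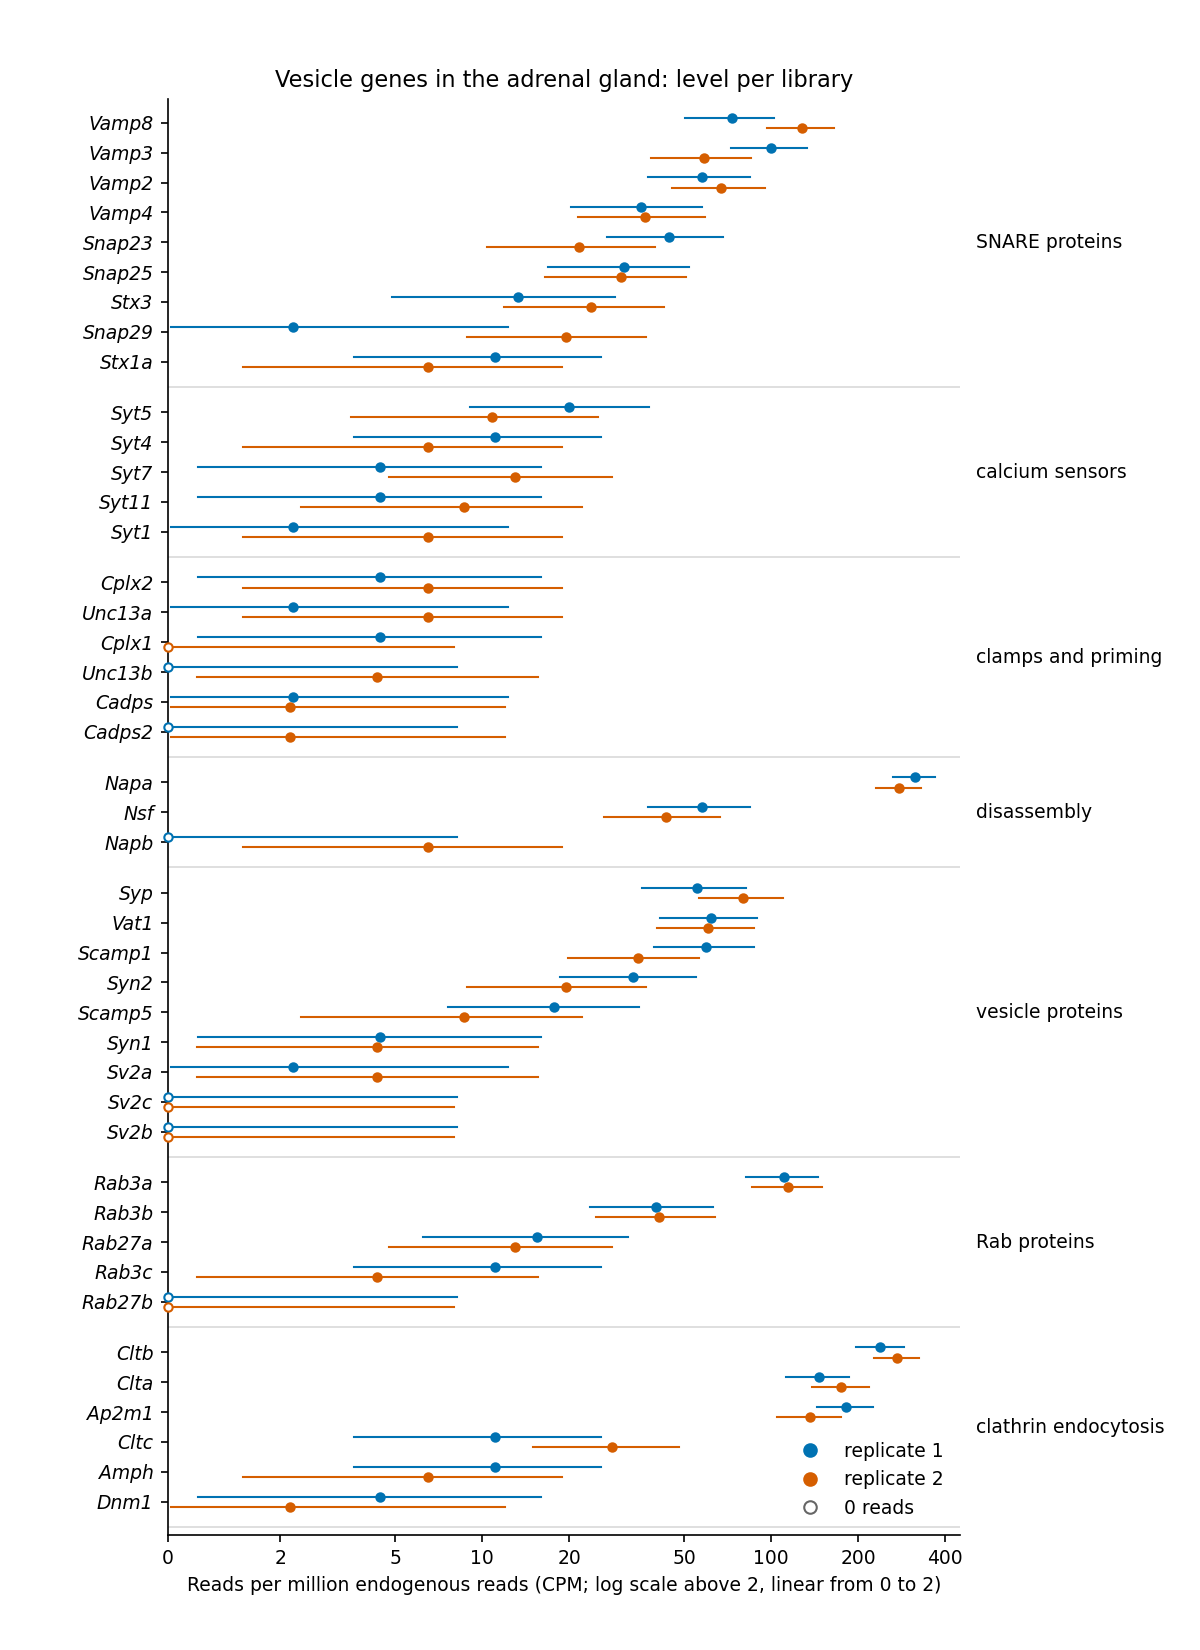
Level of each of the 43 genes (y axis, grouped by role) in CPM (x axis, log scale above 2) in replicate 1 (blue) and replicate 2 (orange). Lines are exact Poisson 95% intervals and open points are counts of 0. The clathrin light chains, Ap2m1, Napa, Rab3a and Vamp8 lie highest, and the clamps and priming genes all lie at or under 6.48 CPM.

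The SNARE genes summed to 379 ± 16.9 CPM (SD, n = 2) and all 9 were seen. Their vesicle members were the vesicle SNAREs Vamp8, Vamp3, Vamp2 and Vamp4. Vamp8 (chr6:72385223-72390703, minus strand), known from the granules of exocrine and blood cells, had 33 reads in replicate 1 and 59 in replicate 2, 72.9 and 127 CPM. Vamp3 (chr4:151047300-151057963, minus strand), of recycling endosomes, had 45 and 27 reads, 99.4 and 58.3 CPM. Vamp2 (chr11:69088490-69092384, plus strand), the SNARE of synaptic and chromaffin vesicles, had 26 and 31 reads, 57.5 and 66.9 CPM. The order of these 3 differed between the libraries: Vamp3 was above Vamp8 in replicate 1 and below it in replicate 2. Vamp4 had 16 and 17 reads.

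Of the plasma membrane SNAREs, Snap25 had 14 reads in each library, 30.9 and 30.2 CPM, and its widely expressed relative Snap23 had 20 and 10. Snap23 was thus above Snap25 in replicate 1 (ratio 1.43, exact conditional 95% interval 0.686 to 3.06) and below it in replicate 2 (0.714, 0.284 to 1.73), and neither interval excludes equal levels. The syntaxins were lower. Stx3 had 6 and 11 reads and Stx1a, the syntaxin of neuronal release, 5 and 3. Snap29, a SNARE of endosomes and autophagosomes, had 1 and 9 reads.

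The calcium sensors were low, at 43.7 ± 2.37 CPM (SD, n = 2) for all 5. Syt5 led with 9 and 5 reads. Syt4 had 5 and 3, Syt7, a sensor of slow chromaffin release, 2 and 6, Syt11 2 and 4, and Syt1, the fast sensor of synapses, 1 and 3. Apart from Syt5, each library gave these genes at most 6 reads, which does not resolve their order.

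The clamps and priming factors were the lowest group, with 6 and 10 reads over 6 genes, 17.4 ± 5.89 CPM (SD, n = 2). Unc13a, a Munc13 priming factor, had 1 and 3 reads, Unc13b 0 and 2, Cadps, the priming factor of dense-core vesicles, 1 and 1, and Cadps2 0 and 1. Cplx1, a complexin, had 2 and 0. The 2 and 3 reads of Cplx2, the other complexin, were all in single-exon models (the Genomic class), so no full-length read of it was seen. These models end at the 3′ end of the gene, at 54383917, so the reads do not show whether introns were removed. A count of 0 allows up to 6.63 CPM in replicate 1 and 6.48 CPM in replicate 2, so these genes lie at or near the limit of these libraries.

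The disassembly genes were dominated by Napa (chr7:16098458-16117975, plus strand), the alpha-SNAP adaptor and the most abundant of the 43. It had 142 reads in replicate 1 and 128 in replicate 2, 314 and 276 CPM, and ranked 592 among all genes by reads. Nsf, the ATPase it recruits, had 26 and 20 reads, so that Napa exceeded it 5.46-fold (3.58 to 8.65) and 6.40-fold (3.98 to 10.8). Napb, the neuronal SNAP adaptor, had 0 and 3 reads.

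Full-length Napa reads fell into several forms. Napa-201 held 111 of 134 reads in replicate 1 and 101 of 115 in replicate 2, and the rest was spread over other forms. The intron of 70 bases at chr7:16113406-16113475 was kept in 14 of 133 reads (10.5%, 6.37 to 16.9%) and in 4 of 114 (3.51%, 1.37 to 8.68%). These intervals overlap.

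Among the vesicle proteins, which summed to 223 ± 16.0 CPM (SD, n = 2), Syp, Vat1 and Scamp1 led. Syp (chrX:7638471-7653256, plus strand), synaptophysin, had 25 and 37 reads, 55.3 and 79.9 CPM. Vat1 (chr11:101458745-101466230, minus strand), a vesicle amine transport protein found in many tissues, had 28 reads in each library, 61.9 and 60.4 CPM. Scamp1, a carrier membrane protein, had 27 and 16 reads, and its relative Scamp5 8 and 4, of which 4 and 0 were full length. Syn2 had 15 and 9 reads and Syn1 2 and 2. Of the SV2 transporters of secretory vesicles, Sv2a had 1 and 2 reads, while Sv2b and Sv2c had 0 in both libraries.

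The Rab proteins summed to 175 ± 2.89 CPM (SD, n = 2). Rab3a (chr8:70754679-70758677, plus strand) had 50 and 53 reads, 111 and 114 CPM, and Rab3b 18 and 19. Their ratio was the steadiest of the pairs examined, 2.78 (1.59 to 5.06) in replicate 1 and 2.79 (1.62 to 4.99) in replicate 2. Rab27a, which docks secretory granules, had 7 and 6 reads, Rab3c 5 and 2, and Rab27b none.

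The clathrin genes were the most abundant group, at 606 ± 19.3 CPM (SD, n = 2). Cltb (chr13:54592401-54611344, minus strand) had 108 and 126 reads, 239 and 272 CPM. Clta (chr4:44004452-44032846, plus strand) had 66 and 81 reads, 146 and 175 CPM. Cltb was above Clta in both libraries, 1.64 times (1.19 to 2.26) and 1.56 times (1.17 to 2.08), with intervals above equal levels. This excess was smaller in full-length reads alone, 79 to 64 (ratio 1.23, 0.877 to 1.74) and 93 to 77 (1.21, 0.883 to 1.66), where neither interval excludes equal levels (chosen after seeing the data). The 29 and 32 single-exon reads inside the last exon of Cltb count in the first pair of ratios and not in the second.

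Ap2m1 (chr16:20535478-20544909, plus strand), the AP2 subunit that binds cargo, had 82 and 63 reads, 181 and 136 CPM. Cltc, the clathrin heavy chain, had 5 and 13 reads, of which 1 and 6 were full length. Its leading form has 31 introns, and the part of transcript length in its count was not tested. Dnm1, the neuronal dynamin that cuts vesicles from the membrane, had 2 and 1 reads, all in single-exon Genomic models. Dnm2, its widely expressed relative outside the list, had 32 and 42. Amph, amphiphysin, had 5 and 3 reads.

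None of these genes was called different between the libraries. For every gene with at least 10 reads summed, its count in each library was set against the rest of the endogenous reads by Fisher's exact test (2-sided). The p-values were adjusted over all 8135 such genes by the Benjamini-Hochberg method. A call needed an adjusted p below 0.05 together with a 2-fold difference after adding 1 CPM. The test compares the reads of these 2 libraries, not conditions. It called 257 genes, a share of 3.16%. Of the 43 genes, 23 passed the minimum and 0 were called, and 3 had an unadjusted p under 0.05 (13.0%, against 16.9% of all tested genes). Their median log2 ratio of replicate 2 over replicate 1 was -0.03, the same as that of all tested genes, with 11 higher in replicate 2 and 12 in replicate 1.

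The 3 were Vamp8, Snap29 and Vamp3. Vamp8 was 1.75 times as abundant in replicate 2 (1.12 to 2.76, Fisher's exact test, p = 0.0119, adjusted p = 0.124). Snap29, with 1 and 9 reads, had a ratio of 8.79 (1.22 to 385, Fisher's exact test, p = 0.0216, adjusted p = 0.179). Vamp3 was 1.71 times as abundant in replicate 1 (1.04 to 2.86, Fisher's exact test, p = 0.0332, adjusted p = 0.234). Their differences did not pass the adjustment. The reads of Snap29 included 4 in single-exon Genomic models in replicate 2 and 0 in replicate 1.

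**Figure D2:**
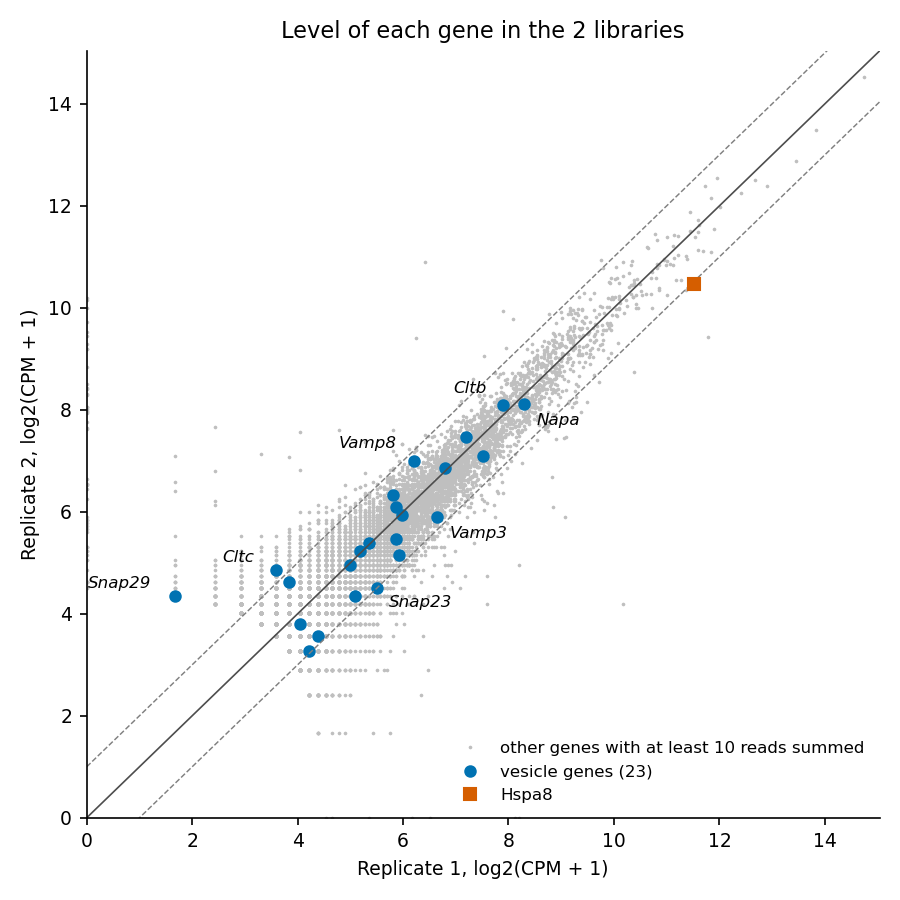
Level of each gene with at least 10 reads summed in replicate 1 (x axis) and replicate 2 (y axis), both as log2(CPM + 1). The 23 vesicle genes that passed this minimum are blue, Hspa8 is an orange square, the solid line marks equal levels and the dashed lines a 2-fold difference; Snap29, at 1 and 9 reads, lies farthest from equality among the blue points.

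Markers of other tissues differed between the libraries and are given beside these values. The 21 pancreas acinar markers summed to 40 reads in replicate 1 and 4474 in replicate 2, all 20 that were tested were called higher in replicate 2, and the 7 islet markers summed to 0 and 117. Chromaffin markers were present in both libraries, with 1492 and 1949 reads over 10 of 10 genes. They were led by Th (1076 and 1252) and Pnmt (230 and 448). Of the 9 tested, 0 were called, which does not show equal levels. Pnmt, at 508 and 967 CPM, lay just under the 2-fold limit of a call. Markers of cortical steroid cells had 30054 and 24911 reads over 8 of 8 genes, of which Nr5a1 was called, higher in replicate 1 (274 and 129). The 6 fat markers had 3409 and 3379 reads, of which Ucp1 was called, higher in replicate 2 (198 and 437). Schwann cell markers had 114 and 91 reads, most of them from Pmp22 (97 and 64). Endothelial markers had 307 and 306 reads, led by Plvap (173 and 131), and macrophage markers 321 and 382. Within each of these lists some genes were higher and others lower in replicate 2, so a sum does not stand for every gene. Of the 9 neuronal markers, Chat, Slc18a3 and Slc5a7 were at 0 in both, and the rest summed to 6 and 12 reads. The part of any of these tissues or cells in the values of Vamp8, Syp or another gene of the list was not tested.

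Among other genes of the same processes, 1 was called. Of 112 such genes, 92 were seen and 59 tested, with 30 higher in replicate 2 and 29 in replicate 1 and a median log2 ratio of 0.05. Hspa8, the chaperone that uncoats clathrin vesicles and has many other clients, was the one called, with 1331 reads in replicate 1 and 659 in replicate 2 (log2 ratio -1.05, Fisher's exact test, adjusted p = 4.25e-53). Its call rests on the fold limit: with edgeR's TMM totals the log2 ratio was -0.98 and in full-length reads alone -0.99, just under 2-fold. With Hspa8 included, 8 of the 59 had an unadjusted p under 0.05.

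After Hspa8, the most abundant of these other genes were Bin1, an amphiphysin relative of wide expression, with 112 and 129 reads, the endosomal syntaxin Stx7 with 91 and 59, and Snap47 with 70 and 62. The small AP2 subunit Ap2s1 had 48 and 68, and the alpha subunit Ap2a1 52 and 60. Sypl, a synaptophysin relative of non-neural cells, had 58 and 55 reads, Scamp4 68 and 44, Vti1b 49 and 57, and Necap2 54 and 48. Syt12, a synaptotagmin that does not bind calcium, had 53 and 47 reads, more than each of the 5 synaptotagmins of the list in both libraries.

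No change of leading form was called in the genes with enough reads. The share of the leading intron chain among full-length reads was tested in the 15 of the 43 genes whose full-length reads numbered 10 or more per library. In 15 of 15 the leading form was the same in replicate 1 and replicate 2, against 96.3% of all 4671 such genes. By Fisher's exact test 0 of the 15 were called (adjusted p below 0.05 and a difference of 10 percentage points or more), and 0 had an unadjusted p under 0.05, where 0.0428% of all genes were called. The median share was 91.1%, against 89.8% over all genes. Rab3b-202 and Nsf-202 held all reads of their genes, 16 and 18 for Rab3b and 22 and 19 for Nsf. Rab3a was the most divided, with Rab3a-201 at 60.5 ± 1.27% (SD, n = 2).

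Internal exons gave no call either. Of 20 alternative exons in 5 genes (Ap2m1, Clta, Cltb, Napa and Snap25), 0 were called by Fisher's exact test and 0 had an unadjusted p under 0.05; the share called over all 6002 exons was 0.0167%. Most of the 20 were either held or skipped in all but 1 to 3 reads of a library. Those between 5 and 95% in either library numbered 3: exons 5a and 5b of Snap25 and the 36-base exon of Clta, in 1 of 64 and 5 of 77 reads.

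Full-length reads made up 87.0% (84.5 to 89.1%) and 84.4% (81.8 to 86.7%) of the reads of the list, beside 86.6% and 84.7% over all annotated genes. The rest were incomplete splice matches (ISM), which follow part of a transcript, and Genomic reads. All 57 Genomic reads of the list in each library were in single-exon models, which hold no splice junction.

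Cltb stood out here. It had 29 Genomic and 0 ISM reads in replicate 1, and 0 Genomic and 33 ISM reads in replicate 2. The 29 were in 1 model at chr13:54592925-54593891 and 32 of the 33 in 1 model at chr13:54593538-54593891, both on the minus strand and with the same 5′ end inside the last exon of Cltb-202. The numbers of reads were close and the class given to them differed. With Genomic reads left out, Cltb had 79 and 126 reads and an adjusted p of 0.0182 by Fisher's exact test, at a log2 ratio of 0.68 in place of 0.19. In Syp (2 single-exon ISM reads, then 7 Genomic), Vat1 (5 ISM, then 4 Genomic) and Ap2m1 (4 ISM, then 7 Genomic) single-exon models with the same 3′ end were classed the other way round. In Vamp2 the models differed: 5 Genomic reads of replicate 1 lay in a model of 3863 bases across the gene, and 5 ISM reads of replicate 2 in one of 1735 bases, the last exon.

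**Figure D3:**
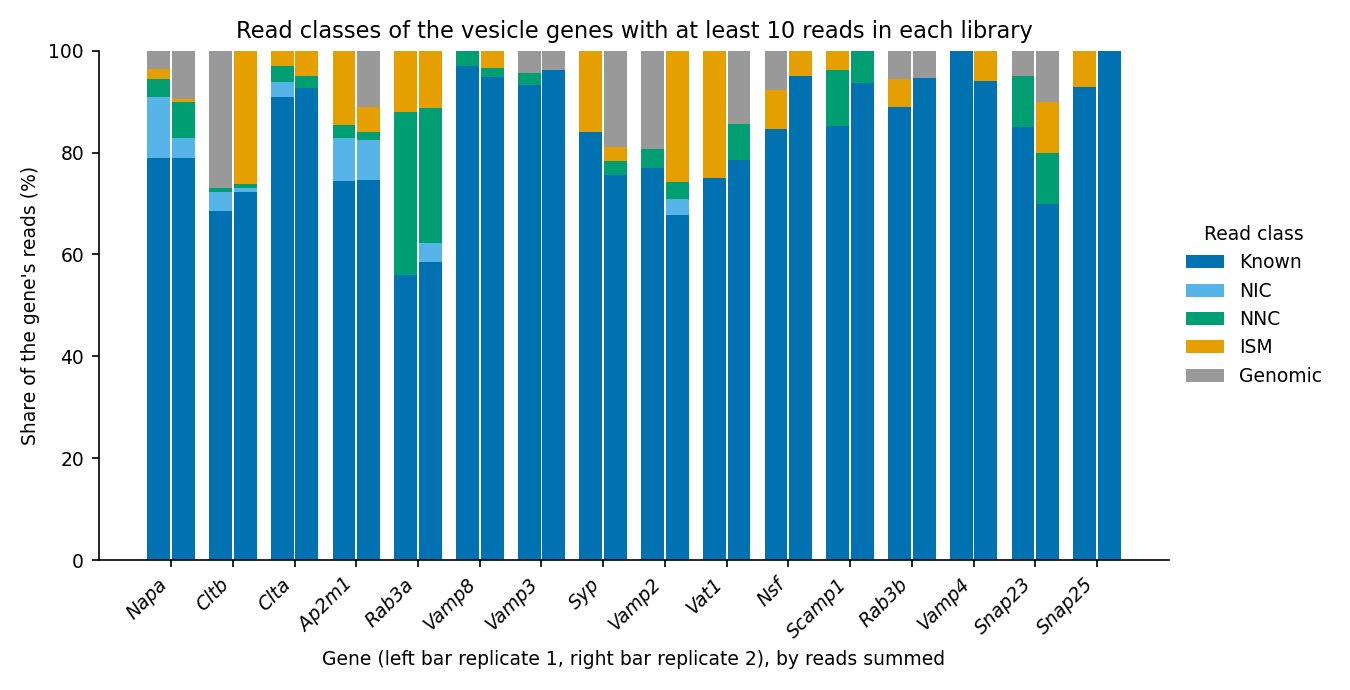
Share of reads (y axis, percent) in each read class for the 16 genes with at least 10 reads in each library (x axis, by reads), left bar replicate 1 and right bar replicate 2. Cltb is Genomic (grey) in replicate 1 where it is ISM (orange) in replicate 2, and Rab3a has the largest NNC share (green) in both.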

How the data were processed

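Long-read RNA-seq libraries of 2 adrenal samples were analysed. Per the file headers and labels, the authors assigned reads to transcript models of GENCODE M21 on mm10 with a standard pipeline whose columns are those of TALON, and deposited whole read counts per model, not normalized; tool versions: not given in the sources used here. Replicate 1 had 458001 reads (452489 endogenous) and replicate 2 had 479002 (463210 endogenous), with spike-ins left out of the scaling. Counts were summed per gene over every class and scaled to CPM. Fisher's exact tests, Wilson, exact Poisson and exact conditional intervals were computed with scipy 1.17.1 (Python 3.11.15) and cover counting error only; reads without molecular identifiers are not independent molecules. A count of 0 was read against 3 counts. edgeR 4.0.16 and DESeq2 1.42.0 supplied alternative scalings only. The tests were checked on simulated data with counting error only, with changes larger than a call needs and, per gene, in genes with many reads. That check does not cover smaller changes or genes with few reads. The members and gene lists were chosen with earlier results of these data known. Full values were given for genes with at least 50 reads summed, for genes with neural forms and for the lowest of each role. Alternatives were other totals, filters, classes and added CPM, and each library alone.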

Additional observations from a re-analysis of the deposited data

Results flagged for a closer look

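Reads on the strand opposite Cplx2 outnumbered its own. The unannotated antisense reads there numbered 22 in replicate 1 and 22 in replicate 2, against 2 and 3 reads on the strand of Cplx2, above the limit of 3 that a count of 0 allows. Nearly all of them, 21 and 22, lay in 1 single-exon model on the minus strand, at chr13:54379512-54379924 in replicate 1 and ending at 54379921 in replicate 2. Of the 43 genes, 21 had opposite reads, 46 and 61 in all, and Cplx2 was the only one with more than 10; Syt4 followed with 2 and 8. Whether the strand of these single-exon reads is right was not tested.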

How the results depend on the processing

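No member was called under any of the 9 alternatives run for the test per gene. Their median log2 ratio was -0.03 in the main run and -0.03 to 0.07 under the alternatives. The SD of the ratio over the members was 0.83, which measures their spread and not the error of the median. All genes called numbered 525 without the fold limit. The other pathway genes called numbered 0 with TMM totals and 0 in full-length classes, where Hspa8 fell just under 2-fold (-0.98 and -0.99). The summed level was 1801 CPM with pancreas genes out of the total, 1892 CPM in full-length classes, 1850 CPM without Genomic and Antisense reads, and 1788 to 1797 CPM leaving out each library. The full-length share was 91.4% as a median over 16 genes, 87.7% without Cltb (chosen after seeing the data), and 84.4 to 87.0% leaving out each library. The leading form share was 98.9% in Known reads, 88.7% at a minimum of 20 reads, and 90.6 to 93.0% leaving out each library. Each of these changes which reads or genes are counted, and the cause was not tested further. The neural exon shares and the exon calls stayed within their spread. Leaving out 1 of 2 libraries cannot move a value that is the mean of the 2 beyond their SD, so that alternative could not fail there. The leading form share is a median over genes, so this does not hold for it. Its value without replicate 1 lay beyond that SD. No paired analysis was possible because there is 1 group of 2 libraries. Depth limits the genes under 10 reads: the 17 of them that were seen were tested only with no filter on reads, where 0 were called (lowest adjusted p of all 40 genes 0.232).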
